A study of Macaca mulatta with 9 samples.

Results

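Genes of bone morphogenetic protein (BMP) signalling were examined in the prostates of adult rhesus monkeys (Macaca mulatta) whose mothers had been given TCDD, a persistent dioxin that acts through the aryl hydrocarbon receptor. The members were GREM1, BAMBI, ID1, ID2 and ID3, taken as every probe whose description in the authors' deposited fold-change table carries one of these symbols. This gave 5 genes on 5 probes, of 1319 gene symbols on 1355 probes in a table of 1502 probes, and of 20217 probes on the array. Each symbol was carried by 1 probe of that table, whose description names the human transcript. Probes without a symbol in the table were not assigned to a gene. The array holds a further probe of this kind that may measure a member, and its values are not included here. The values of each gene therefore rest on 1 probe. The table had been selected by the authors on these same 9 arrays, with a limit of 0.05 on the p of a 1-way analysis of variance over dose and a minimum 1.5-fold change at 1 or both doses. Its genes therefore had to differ between the dose groups, so the dose differences of the members are given below as descriptions, without a test.

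The arrays held 3 groups of 3 offspring, with 1 one-colour Agilent array of whole prostate RNA per animal. The dams had received vehicle (0 ng/kg), 30 ng/kg or 300 ng/kg TCDD subcutaneously on gestation day 20. Further injections of 5% of that first dose followed at intervals of 30 days up to day 90 after delivery, so exposure covered gestation and nursing. Offspring of all 3 groups were necropsied 7 years after exposure, and the labels give no other treatment. The tissue was homogenised whole, so the arrays cannot tell fewer cells of a type apart from less RNA per cell.

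BMPs are secreted ligands of the TGF-beta family. They bring together type I and type II receptor kinases at the cell surface, and the activated receptors phosphorylate a set of SMAD proteins that enter the nucleus and switch on target genes. GREM1 (gremlin 1) is a secreted cysteine-knot protein that binds BMPs outside the cell and keeps them from their receptors. BAMBI is a membrane protein that resembles a type I receptor but lacks the kinase, and so acts as a decoy. ID1, ID2 and ID3 are helix-loop-helix proteins without a DNA-binding region. They pair with basic helix-loop-helix (bHLH) transcription factors and keep them off DNA. The ID genes are classic immediate targets of BMP signalling, and BAMBI is also induced by it. In the developing mouse prostate, BMPs are known as brakes on budding and branching of the ducts.

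Array brightness differed between the groups. The 75th percentile of the processed signal ran from 514 to 1193 intensity units in vehicle, from 343 to 1356 at 30 ng/kg and from 1258 to 2374 at 300 ng/kg. Of the spots on each array, those well above background made up 66.7 to 79.2% in vehicle, 63.9 to 79.0% at 30 ng/kg and 79.3 to 83.9% at 300 ng/kg. Slide 1 held vehicle replicates 1 and 2. Slide 2 held vehicle replicate 3 and replicates 1 and 2 of 30 ng/kg, and slide 3 held replicate 3 of 30 ng/kg and all 3 arrays of 300 ng/kg. Vehicle and 300 ng/kg arrays never lay on the same slide. Levels below are the log2 of a probe's signal relative to the 75th percentile of its own array, so 0 is the level of that percentile. Levels of different probes are not compared with each other. Sums of linear levels over cell type markers, given further below, weigh the brightest probe most. All 5 probes were well above background on all 9 arrays, and none of their spots was saturated or marked as an outlier.

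All 5 genes stood higher at 300 ng/kg than in vehicle, and stood close to vehicle at 30 ng/kg. Among 300 ng/kg and vehicle arrays the groups did not overlap for 5 of 5 members, where 11.5% of the 15160 tested probes had 300 ng/kg wholly above vehicle. This contrast was among those that selected the members, so the count is a description. Between 30 ng/kg and vehicle the groups overlapped for 5 of 5 members, and 4.93% of tested probes had 30 ng/kg wholly above vehicle. All 3 arrays of 300 ng/kg lay above all 3 of 30 ng/kg for 4 of 5 members, against 11.2% of tested probes. Across all tested probes, 0 (0.0%) passed limma's moderated test at an adjusted p under 0.05 in any of these comparisons. At an unadjusted p under 0.05 there were 2357 (15.5%) for 300 ng/kg against vehicle, 766 (5.05%) for 30 ng/kg against vehicle and 3130 (20.6%) for 300 against 30 ng/kg. The count of 0 depended on single arrays: without replicate 2 of 300 ng/kg, 364 probes passed for 300 ng/kg against vehicle and 247 for 300 against 30 ng/kg, and without replicate 2 of 30 ng/kg, 777 passed for the last.

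The secreted antagonist GREM1 differed most between the groups. Its level read -2.79, -3.05 and -2.41 on the vehicle arrays, -1.57, -3.37 and -2.52 at 30 ng/kg, and 0.66, -1.15 and 2.00 at 300 ng/kg. All 3 arrays of 300 ng/kg lay above all 6 others, as they did for 5.44% of tested probes, while the 30 ng/kg arrays lay on both sides of the vehicle values. In unscaled units the probe gave 1986, 729 and 9531 at 300 ng/kg, against 74.2, 144 and 150 in vehicle. The scaled level averaged 0.51 ± 1.58 at 300 ng/kg and -2.75 ± 0.32 in vehicle (SD, n = 3 each), a log2 difference of 3.26 ± 0.73 (SE of limma's fit) or 9.56-fold. At 30 ng/kg it averaged -2.49 ± 0.90, a difference from vehicle of 0.26 ± 0.73. The spread of GREM1 was wide: its residual SD of 1.07 was larger than that of 95.2% of tested probes, whose median was 0.40. Repeat spots of the GREM1 probe on 1 array differed by a median of 0.20 and at most 0.37.

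BAMBI, the decoy receptor, had the smallest difference of the 5 before slide was taken into account. With slide as a fixed block its estimate was larger than those of ID2 and ID3, but with wide errors (SE 0.78, 0.75 and 0.70). It read -2.13, -2.21 and -2.04 in vehicle, -2.17, -1.50 and -2.11 at 30 ng/kg, and -0.28, -1.57 and -0.55 at 300 ng/kg. The vehicle arrays were tightly grouped, and the lowest 300 ng/kg array lay just below the highest 30 ng/kg array. The means were -0.80 ± 0.68 at 300 ng/kg and -2.13 ± 0.08 in vehicle (SD, n = 3 each), a log2 difference of 1.33 ± 0.35 (SE) or 2.51-fold. BAMBI averaged -1.93 ± 0.37 at 30 ng/kg, 0.20 ± 0.35 from vehicle.

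**Figure D1:**
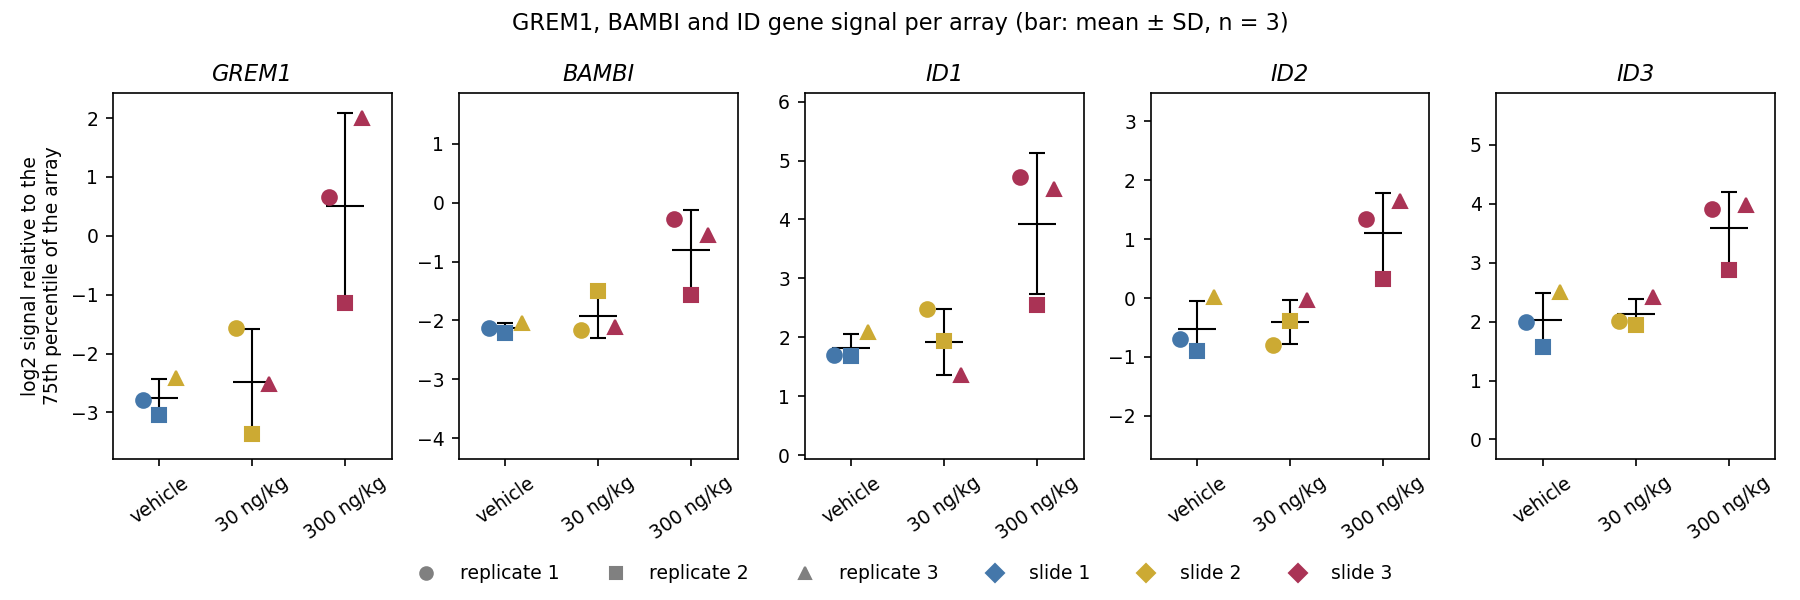
Scaled log2 level of GREM1, BAMBI, ID1, ID2 and ID3 on each of the 9 arrays, by dose of the dam (vehicle, 30 and 300 ng/kg), with points for animals (symbol for replicate, colour for slide) and bars for the group mean ± SD. In each panel the 300 ng/kg group has the highest mean, and its replicate 2 is the lowest of the 3 animals.

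The 3 ID genes stood higher together. ID1 read 1.70, 1.68 and 2.08 in vehicle, 2.48, 1.93 and 1.36 at 30 ng/kg, and 4.72, 2.55 and 4.51 at 300 ng/kg. Its lowest 300 ng/kg array exceeded the highest 30 ng/kg array by only 0.08. The ID1 difference between 300 ng/kg (3.93 ± 1.19) and vehicle (1.82 ± 0.23; SD, n = 3 each) was 2.11 ± 0.54 (SE) or 4.31-fold. Like GREM1, ID1 had a wide residual SD, 0.77, larger than that of 85.9% of tested probes.

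ID2 read -0.69, -0.89 and 0.01 in vehicle, -0.79, -0.39 and -0.04 at 30 ng/kg, and 1.34, 0.33 and 1.64 at 300 ng/kg. Vehicle and 30 ng/kg arrays were interleaved, and all 3 arrays of 300 ng/kg lay above them. The means were 1.10 ± 0.69 at 300 ng/kg and -0.52 ± 0.48 in vehicle, a log2 difference of 1.62 ± 0.39 (SE) or 3.08-fold. ID3 read 2.00, 1.56 and 2.50 in vehicle, 2.00, 1.95 and 2.43 at 30 ng/kg, and 3.90, 2.87 and 3.98 at 300 ng/kg. The same separation was seen as for ID2. The ID3 means were 3.59 ± 0.62 at 300 ng/kg and 2.02 ± 0.47 in vehicle, a log2 difference of 1.57 ± 0.36 (SE) or 2.96-fold. Against vehicle at 30 ng/kg, the differences were 0.10 ± 0.54 for ID1, 0.12 ± 0.39 for ID2 and 0.10 ± 0.36 for ID3, each well within its error.

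Between the exposed groups, 300 minus 30 ng/kg was 2.99 ± 0.73 for GREM1, 1.13 ± 0.35 for BAMBI, 2.00 ± 0.54 for ID1, 1.51 ± 0.39 for ID2 and 1.46 ± 0.36 for ID3 (SE). The dose order of the means was vehicle, 30 and 300 ng/kg for each gene, with the first pair not differing beyond its spread. The authors' deposited table gave folds of 9.57 for GREM1, 4.31 for ID1, 3.08 for ID2, 2.97 for ID3 and 2.52 for BAMBI at 300 ng/kg. In the authors' deposited table these are ranks 10, 39, 57, 59 and 113 of 654 probes listed as up at that dose. At 30 ng/kg the authors' deposited table gave 1.20 for GREM1, 1.07 for ID1, 1.08 for ID2, 1.07 for ID3 and 1.15 for BAMBI, all under its 1.5-fold limit.

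Among all tested probes, the median log2 difference between 300 ng/kg and vehicle was -0.01, and the 99th percentile was 1.85. The median over the 5 members was 1.62 (1.33 to 3.26). GREM1 and ID1 lay beyond the 99th percentile, with 26 probes (0.172%) at or above GREM1 and 115 (0.759%) at or above ID1. ID2, ID3 and BAMBI lay below it, with 207 (1.37%), 221 (1.46%) and 350 (2.31%) probes at or above them. For 30 ng/kg minus vehicle the members' median was 0.12 (0.10 to 0.26), against 0.02 over all tested probes. Between 27.5% and 41.8% of tested probes had a value at least as high as the members' own.

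**Figure D2:**
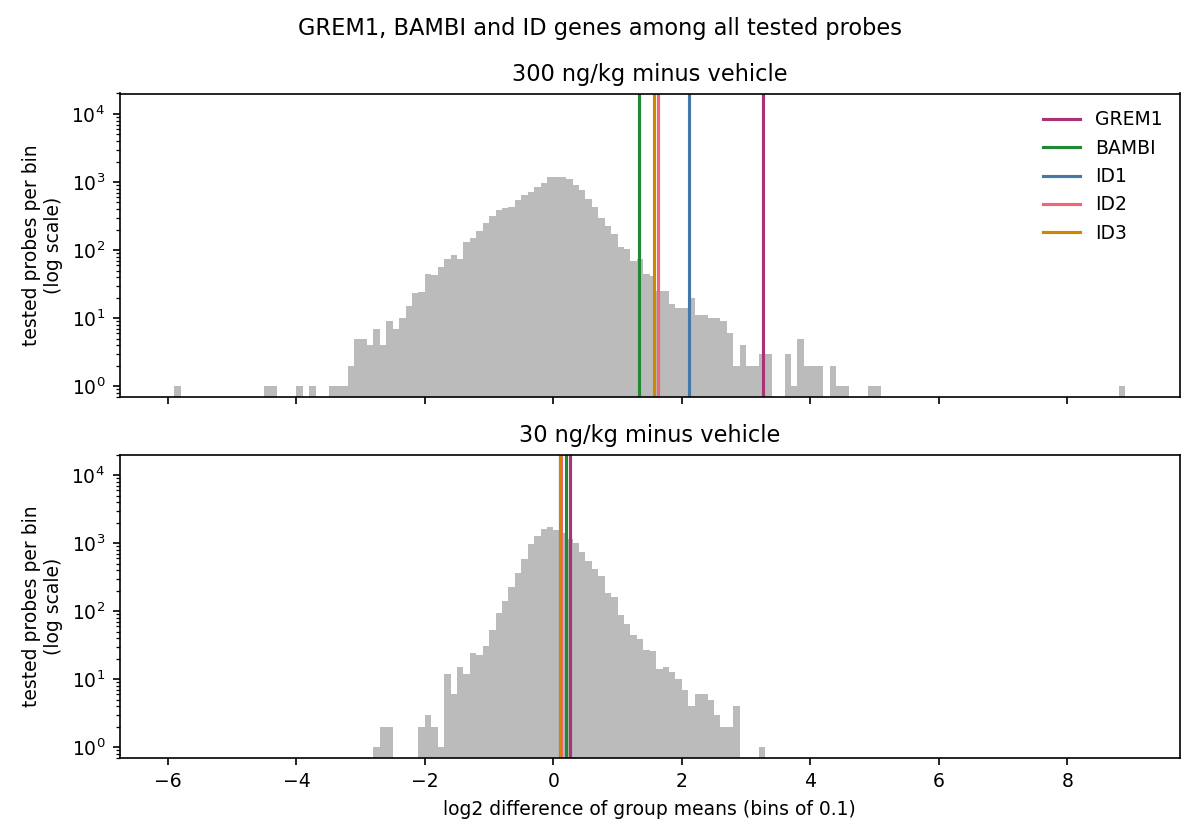
Distribution of the log2 difference from vehicle over 15160 tested probes at 30 and 300 ng/kg, with the 5 members marked. At 300 ng/kg the members sit between 1.33 and 3.26 in the upper tail, and at 30 ng/kg between 0.10 and 0.26 near the centre.

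Replicate 2 of 300 ng/kg read lowest of its group for all 5 members. It lay below the next 300 ng/kg animal by 1.80 for GREM1, 1.96 for ID1, 1.02 for BAMBI, 1.01 for ID2 and 1.03 for ID3. Its own log2 difference from the vehicle mean was 1.60 for GREM1, 0.56 for BAMBI, 0.73 for ID1, 0.85 for ID2 and 0.85 for ID3. Taking the distance between the vehicle mean and the mean of replicates 1 and 3 as the whole, it stood 39.3% of the way for GREM1, 32.6% for BAMBI, 26.3% for ID1, 42.2% for ID2 and 44.3% for ID3. This animal was not low across the array, since it read lowest of the 3 for 30.0% of all tested probes. It was lowest for 80.6% of the 653 probes (4.31% of those tested) that stood at least 1 higher at 300 ng/kg on the log2 scale, with a median of 26.3% of the way. Among the 607 tested probes that the authors' deposited table lists as up at 300 ng/kg, it was lowest for 58.0%, with a median of 66.7% of the way, further than for any member.

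Without replicate 2 the differences between 300 ng/kg and vehicle were 4.08 for GREM1, 1.71 for BAMBI, 2.79 for ID1, 2.01 for ID2 and 1.92 for ID3. With it removed, 5 of 5 members had 300 ng/kg wholly above vehicle, against 20.5% of tested probes. Likewise 5 of 5 then had 300 ng/kg wholly above 30 ng/kg, against 19.8%. Without replicate 3 of 300 ng/kg the GREM1 difference was 2.51, and without replicate 1 the ID1 difference was 1.71.

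The slide was tied to the dose, and vehicle and 300 ng/kg could not be compared within a slide. Within slide 3, 300 ng/kg minus the single 30 ng/kg array was 3.02 for GREM1, 1.31 for BAMBI, 2.56 for ID1, 1.14 for ID2 and 1.16 for ID3. The low replicate 2 stood above that 30 ng/kg array by 1.37, 0.54, 1.19, 0.36 and 0.45 for the same genes in that order. Relative to the highest 30 ng/kg array on any slide, it stood at 0.42, -0.07, 0.08, 0.36 and 0.45. The slide 3 margin rests on 1 array of 30 ng/kg, which was the lowest of its group for ID1. Within slide 2, the mean of both 30 ng/kg arrays minus the single vehicle array was -0.06 for GREM1, 0.21 for BAMBI, 0.12 for ID1, -0.60 for ID2 and -0.52 for ID3. The vehicle array of slide 2 was the highest vehicle array for all 5 members. Slide as a fixed block reaches that 1 vehicle array by way of 30 ng/kg. With it, 300 ng/kg minus vehicle was 2.97 ± 1.69 for GREM1, 1.52 ± 0.78 for BAMBI and 2.68 ± 1.17 for ID1 (SE). It was 0.54 ± 0.75 for ID2 and 0.64 ± 0.70 for ID3. These errors were larger than those without slide for all 5 members. The ID2 and ID3 values were thus under 1 log2 unit, and smaller than their errors, once slide was accounted for in this way.

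Brightness moved with dose as well. Over the 9 arrays the members' levels had a Pearson r with log2 brightness of 0.50 for GREM1, 0.68 for BAMBI, 0.57 for ID1, 0.60 for ID2 and 0.52 for ID3. Over the 6 vehicle and 30 ng/kg arrays alone it was -0.79 for GREM1, 0.56 for BAMBI, -0.07 for ID1, -0.08 for ID2 and -0.45 for ID3. With brightness as a covariate the 300 ng/kg minus vehicle differences were 3.59, 1.11, 2.10, 1.57 and 1.71 in the same order, within 1 residual SD of those without it.

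The levels of the 5 genes followed each other across animals. Among the 10 pairs, Pearson's r over 9 arrays ran from 0.840 to 0.987 with a median of 0.908, and Spearman's rho from 0.533 to 0.933 with a median of 0.767. These are descriptions: the arrays share slides, differ in brightness and fall into dose groups, and the genes were chosen for differing between the doses. Replicates 1 and 3 of 300 ng/kg carried much of it. Without them the median r over 7 arrays was 0.426 (0.085 to 0.942), and over the 6 vehicle and 30 ng/kg arrays it was 0.046 (-0.561 to 0.899).

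ID2 and ID3 were the pair that held together in each subset examined. Their r was 0.99 over 9 arrays, 0.94 without replicates 1 and 3 of 300 ng/kg, 0.90 over vehicle and 30 ng/kg alone, and 0.95 over deviations from the group means. GREM1 and ID1 gave 0.94, 0.75, 0.58 and 0.79 in the same subsets. GREM1 and BAMBI gave 0.84, 0.08, -0.56 and 0.41, so the sign of r for these inhibitors of BMP signalling turned when the 300 ng/kg animals were left out. ID1 and ID2 gave 0.88, 0.23, -0.25 and 0.55, unlike the pair of ID2 and ID3.

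**Figure D3:**
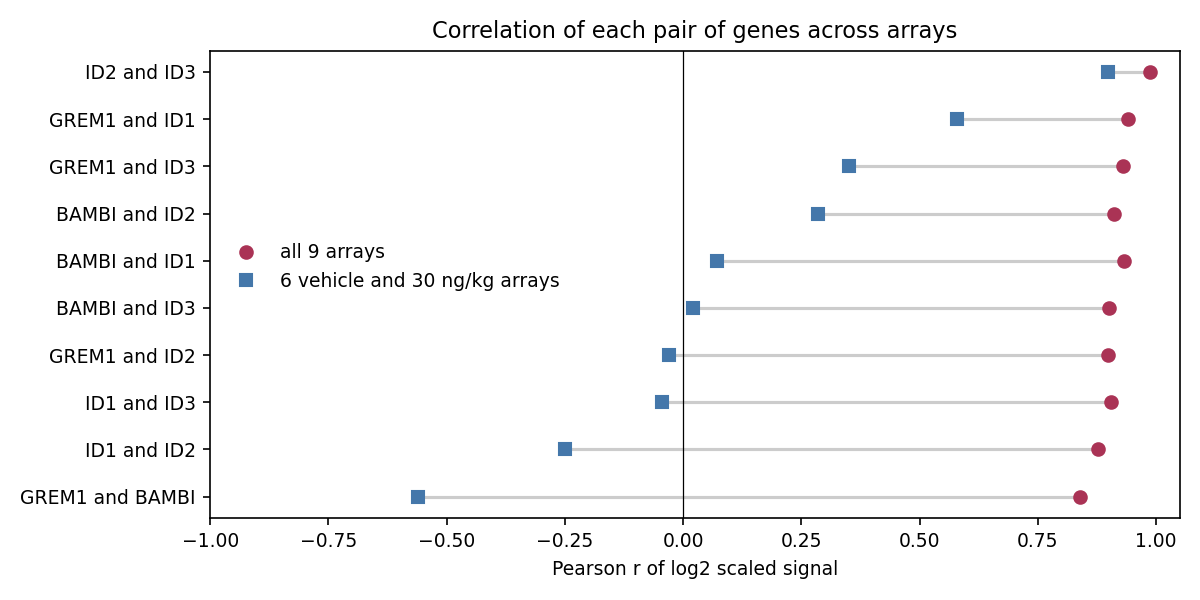
Pearson r between each pair of the 5 genes over all 9 arrays (circles) and over the 6 vehicle and 30 ng/kg arrays (squares). ID2 with ID3 is at 0.99 and 0.90 in these sets, while GREM1 with BAMBI is at 0.84 over all 9 and -0.56 over the 6.

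Ratios of 2 members within an array do not depend on the factor by which each array is scaled. The log2 ratio of ID2 to ID3 read -2.69, -2.46 and -2.48 in vehicle, -2.79, -2.33 and -2.46 at 30 ng/kg, and -2.57, -2.55 and -2.34 at 300 ng/kg. The groups overlapped, and over all 9 arrays the SD was 0.15 and the range 0.46. The mean ratio differed by 0.06 between 300 ng/kg (-2.49 ± 0.12) and vehicle (-2.54 ± 0.13; SD, n = 3 each).

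The ratio of ID1 to ID3 was looser, with -0.30, 0.12 and -0.41 in vehicle, 0.47, -0.02 and -1.06 at 30 ng/kg, and 0.81, -0.32 and 0.53 at 300 ng/kg. These groups overlapped, with a mean difference of 0.54 between 300 ng/kg and vehicle. The ratio of GREM1 to ID1 read -4.49, -4.72 and -4.50 in vehicle, -4.04, -5.30 and -3.88 at 30 ng/kg, and -4.06, -3.70 and -2.51 at 300 ng/kg. The ratio of GREM1 to ID3 read -4.79, -4.61 and -4.91 in vehicle, -3.57, -5.32 and -4.94 at 30 ng/kg, and -3.25, -4.02 and -1.98 at 300 ng/kg. All 3 arrays of 300 ng/kg lay above all 3 of vehicle in these ratios, while 30 ng/kg overlapped both.

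Against vehicle at 300 ng/kg, the log2 ratio of GREM1 was higher by 1.15 over ID1, 1.63 over ID2, 1.69 over ID3 and 1.93 over BAMBI. The ratio of BAMBI differed by -0.78 over ID1, -0.29 over ID2 and -0.24 over ID3, with overlapping groups. The excess over ID1 rested much on replicate 3 of 300 ng/kg: it was 0.69 without that array, 0.57 with normexp background correction and 0.28 with slide as a fixed block. Without replicate 3 the excess was 1.15 over ID2, 1.14 over ID3 and 1.30 over BAMBI.

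**Figure D4:**
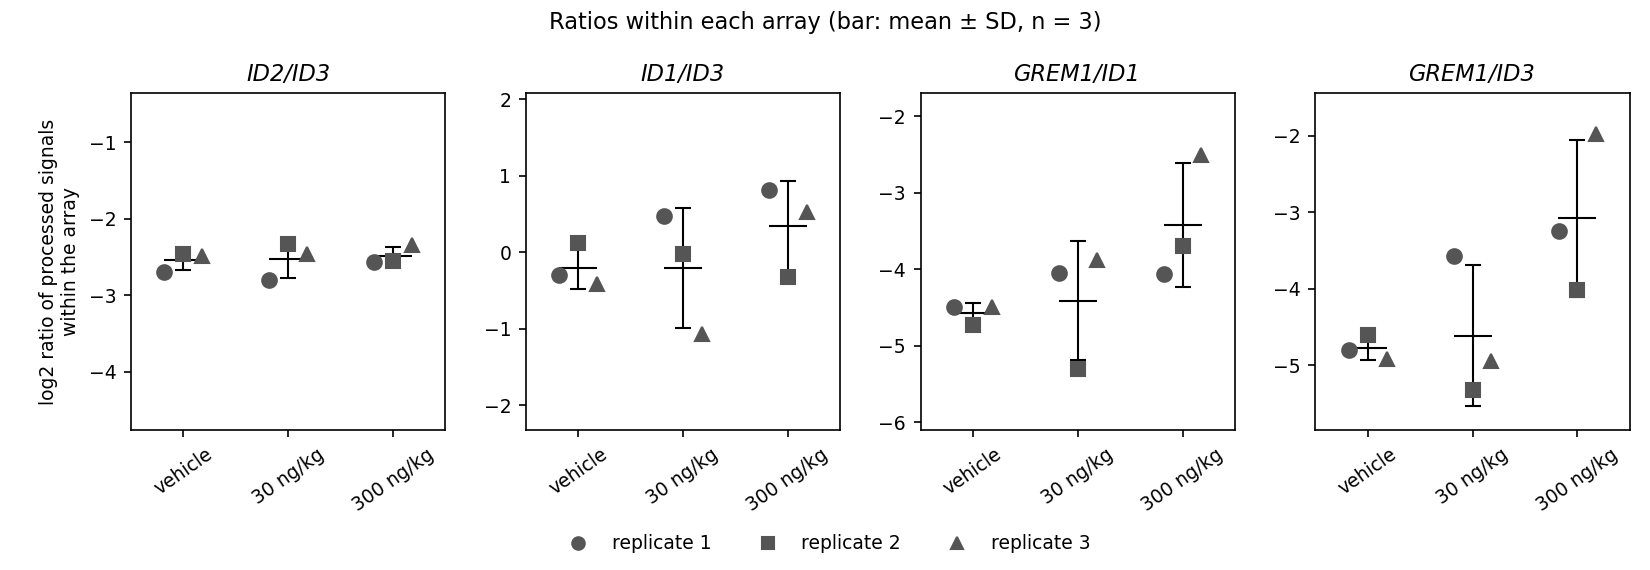
Log2 ratios between members on each array, by dose, with bars for the mean ± SD (n = 3). ID2 over ID3 spans 0.46 over all 9 arrays, while the ratios of GREM1 to ID1 and ID3 lie higher at 300 ng/kg than in vehicle, with 30 ng/kg overlapping both.

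Among 1208 named and tested probes, those most like each member by Pearson r over the 9 arrays were looked up. For GREM1 they were CACNA1G, a T-type calcium channel subunit (0.969), ANXA8, a calcium-dependent membrane-binding annexin (0.968), and VNN2, a membrane-anchored vanin of the pantetheinase family (0.956). VNN2 was well above background on 0 of the 3 vehicle and 0 of the 3 arrays of 30 ng/kg, and ANXA8 on 1 of 3 in each. For BAMBI they were PDLIM1, a cytoskeletal adaptor (0.982), C6orf4 (0.981) and PTPLB (0.978). For ID1 they were the acyl-CoA binding protein DBI (0.973), SEC61B of the secretory translocon (0.967) and C20orf133 (0.967), which was well above background on the 300 ng/kg arrays alone.

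ID2 and ID3 were each other's nearest gene at 0.987. After that pair, ID2 was nearest to ADAMTS2, a procollagen protease (0.987), WDR40B (0.982) and KREMEN2, a receptor of Wnt antagonists (0.981). KREMEN2 was well above background on only 1 of 3 vehicle and 1 of 3 arrays of 30 ng/kg. ID3 was nearest to ADAMTS2 (0.974), ANXA8 (0.972) and WDR40B (0.971). The members did not otherwise stand first for one another. From GREM1, the others ranked 11 (ID1), 15 (ID3), 41 (ID2) and 108 (BAMBI), and from BAMBI the nearest member was ID1 at rank 42. These are likenesses of pattern in genes that were all listed for a dose difference.

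The rest of the pathway was read from lists of genes, of which only those named in the authors' table could be followed. They had been selected in the same way as the members, so genes with no difference could not appear, and 0 of them passed limma's test over all 15160 probes. Values are log2 differences from vehicle ± SE, with 300 ng/kg before 30 ng/kg. Of 20 secreted antagonists, 3 were tested, GREM1 among them. CHRD (chordin), which holds BMPs outside the cell as GREM1 does, stood at 0.72 ± 0.21 and 0.01 ± 0.21, with 300 ng/kg wholly above vehicle. DAND5, of the same cysteine-knot family as GREM1, stood at -1.00 ± 0.26 and -0.30 ± 0.26, with 300 ng/kg wholly below, as in 11.2% of tested probes. The antagonists therefore did not share a direction.

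Of 25 ligand genes, 3 were tested. GDF5 stood at -1.30 ± 0.45 at 300 ng/kg. GDF10 stood at 0.57 ± 0.36 there, with overlapping groups. With normexp background correction it stood at -0.10, where the median of all tested probes was -0.22, so it lay 0.13 above that median. At 30 ng/kg both were well above background on only 1 of 3 arrays. BMP1, a procollagen protease that also cleaves chordin and is no BMP ligand despite its name, stood at -1.98 ± 0.71 and -2.11 ± 0.57 on its 2 probes at 300 ng/kg. The groups overlapped for the first of these probes and not for the second. Of 17 receptors, 2 were tested. ACVR2B, a type II receptor, stood at -1.10 ± 0.47 and 0.78 ± 0.47, and ACVRL1, a type I receptor of endothelium, at -0.76 ± 0.26 and -0.05 ± 0.26. Both had 300 ng/kg wholly below vehicle.

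Of 20 SMADs and regulators, 3 were tested. SMAD7, which blocks receptor signalling and is also a BMP target, stood at 0.76 ± 0.26 and -0.47 ± 0.26, with 300 ng/kg wholly above vehicle. TOB1, an antiproliferative protein that binds SMADs, stood at 0.37 ± 0.31 and -0.82 ± 0.31. CTDSP1, a phosphatase that removes phosphate from SMADs, stood at -1.13 ± 0.32 and -0.34 ± 0.32. The list had no common direction, with 2 genes above vehicle and 1 below at 300 ng/kg.

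Of 26 BMP target genes, 7 were tested, and 4 of these are the members BAMBI, ID1, ID2 and ID3. The other 3, SMAD7, HES1 and HEY1, were also above vehicle at 300 ng/kg, with a median of 0.85. Of all tested probes, 49.6% lay above vehicle, with a median of -0.01. Those probes were not selected for a dose difference as these 3 genes were, so the gap between the medians is a description. Of the 1502 probes of the authors' table, 654 were listed as up at that dose. HES1, a transcriptional repressor of the Notch pathway, read -0.19, 0.02 and -0.25 in vehicle, -1.22, 0.58 and -0.16 at 30 ng/kg, and 1.75, 0.52 and 1.56 at 300 ng/kg. As in the members, replicate 2 of 300 ng/kg was the lowest of its group. HEY1, a related repressor, read -0.40, -0.65 and -0.48 in vehicle, 0.07, -0.10 and -0.13 at 30 ng/kg, and -0.03, 0.34 and 0.70 at 300 ng/kg. Unlike in the members, replicate 2 was not the lowest here, and the 30 ng/kg arrays lay wholly above vehicle. The differences from vehicle were 1.42 ± 0.47 and -0.12 ± 0.47 for HES1 and 0.85 ± 0.23 and 0.46 ± 0.23 for HEY1.

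The bHLH factors that ID proteins bind, or their relatives, numbered 22, of which 3 were tested. At 300 ng/kg 2 of these were below vehicle, and TCF4 was level with it. LYL1, a factor of blood and vessel cells, read 3.94, 3.21 and 4.28 in vehicle, 5.01, 3.67 and 3.18 at 30 ng/kg, and 2.35, 1.34 and -1.10 at 300 ng/kg. Its difference from vehicle was -2.94 ± 0.82 at 300 ng/kg, with the 300 ng/kg arrays wholly below the others. TCF3, which encodes the E proteins E12 and E47, stood at -0.45 ± 0.30 and 0.78 ± 0.30, with 300 ng/kg wholly below vehicle. TCF4, another E protein, stood at -0.01 ± 0.23 and 0.69 ± 0.23, and its 300 ng/kg value was at 0 or above under normexp, quantile and median scaling. TCF15, also on this list, was not tested, with 0 of 3 arrays well above background at 300 ng/kg.

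Of 22 genes of prostate development, 3 were tested, and none of the BMP genes on that list was among them. WNT5A, a Wnt ligand of the stroma, stood at 1.24 ± 0.32 and 0.43 ± 0.32, with 300 ng/kg wholly above vehicle. The secreted Wnt antagonist SFRP1 stood at 1.16 ± 0.41 and -0.22 ± 0.41, with overlapping groups. WNT5B, a ligand close to WNT5A, stood at -1.25 ± 0.26 and -0.21 ± 0.26, with 300 ng/kg wholly below vehicle.

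**Figure D5:**
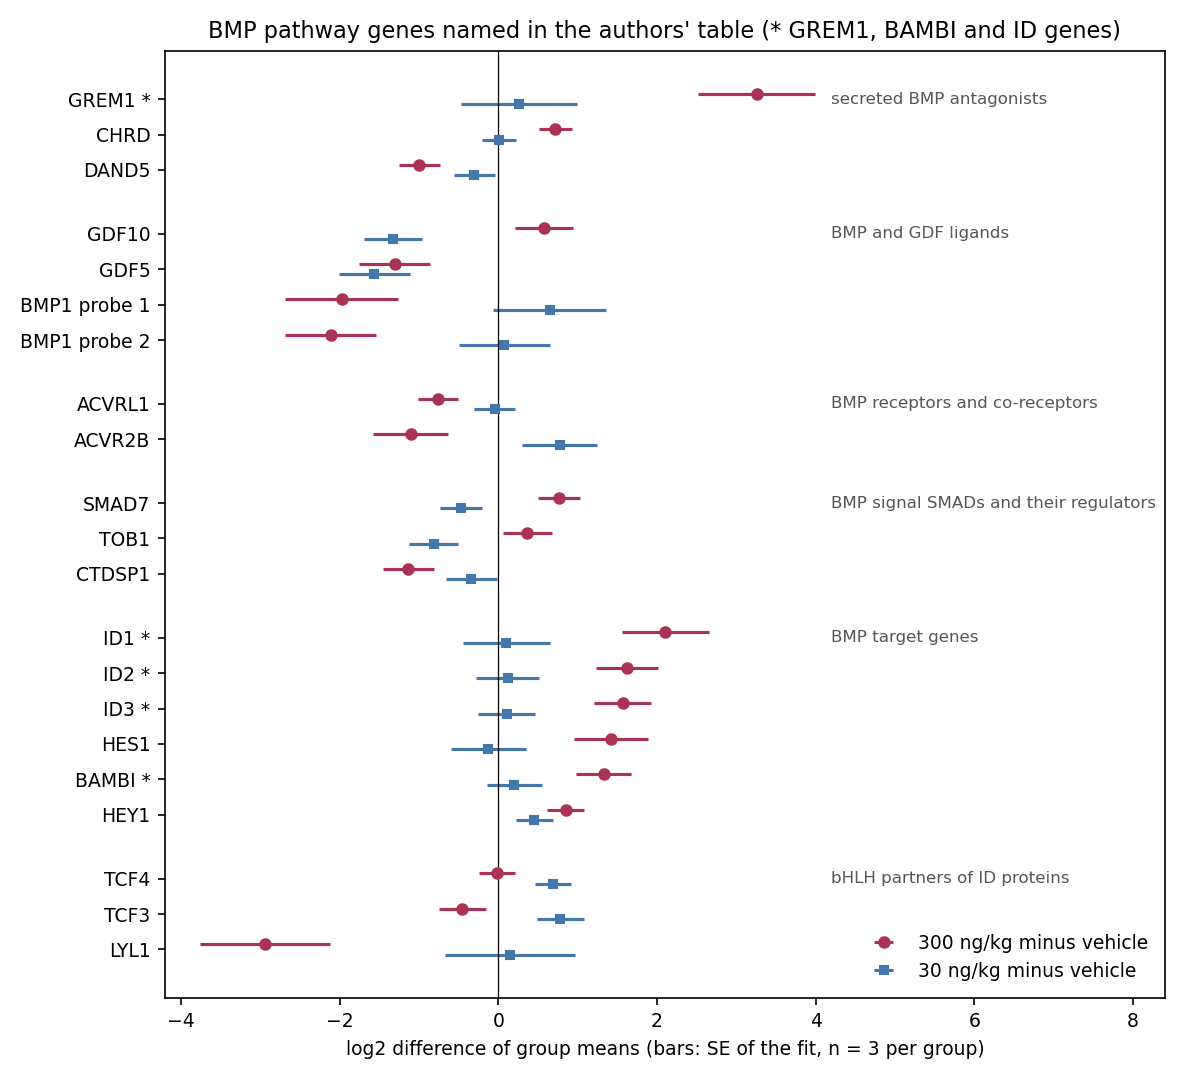
Log2 difference from vehicle (± SE of limma's fit) at 30 and 300 ng/kg for the tested genes of each BMP list. The target genes lie above 0 at 300 ng/kg, TCF4 close to 0 and the other bHLH partners below it, and the antagonists, ligands and SMAD genes on both sides.

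Markers of the cell types that whole prostate holds also differed in level between the groups. Summed linear levels of the 2 tested fibroblast markers of 12, COL1A1 and COL1A2, were 6.72 to 8.01 in vehicle, 5.93 to 8.52 at 30 ng/kg and 10.8 to 20.0 at 300 ng/kg. COL1A2 made up most of these sums. The log2 differences between 300 ng/kg and vehicle were 1.54 ± 0.41 for COL1A1 and 0.75 ± 0.29 for COL1A2 (SE). The 2 tested smooth muscle markers of 12, LMOD1 and TPM2, summed to 222 to 339 in vehicle, 243 to 449 at 30 ng/kg and 117 to 199 at 300 ng/kg. Nearly all of this was TPM2. The log2 differences between 300 ng/kg and vehicle were -0.80 ± 0.28 for LMOD1 and -0.73 ± 0.32 for TPM2 (SE). The stromal lists thus stood on opposite sides of vehicle at the dose where the members stood higher.

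The 3 tested luminal epithelial genes of 12 summed to 681 to 965 in vehicle. The sums were 638 to 1999 at 30 ng/kg and 413 to 491 at 300 ng/kg. Their largest part was 1 KLK3 probe with 10 saturated spots, on arrays of all 3 groups. A saturated level is limited by array brightness, so these sums do not measure the group difference. The unsaturated KLK3 probe differed from vehicle by -1.47 ± 0.59 at 300 ng/kg and 0.97 ± 0.59 at 30 ng/kg (SE). MSMB differed by -0.73 ± 0.36 and 0.79 ± 0.36, with overlapping groups. KLK3 and MSMB, secreted products that define prostate luminal epithelium, were well above background on all 9 arrays. TGM4, a secreted transglutaminase of the gland and 1 of the 3, went the other way and read 6.81, 1.42 and 7.41 at 300 ng/kg, against -3.89, -4.55 and -2.54 in vehicle. As in the members, replicate 2 was its lowest 300 ng/kg array. The 2 tested basal markers of 12, S100A2 and ITGB4, summed to 4.53 to 6.96 in vehicle, 7.72 to 10.3 at 30 ng/kg and 5.96 to 6.35 at 300 ng/kg. ITGB4 made up most of these sums. At 300 ng/kg ITGB4 differed from vehicle by 0.21 ± 0.24 and S100A2 by 1.55 ± 0.57, both with overlapping groups. With normexp the S100A2 value was 0.32, which lay 0.54 above the median of all tested probes. S100A2 was well above background on 2 of 3 vehicle and 1 of 3 arrays of 30 ng/kg. It lay at the floor of the scale on 2 arrays of 30 ng/kg. Endothelium had 1 tested marker of 12, PECAM1, at 0.916 to 1.22 in vehicle, 2.19 to 3.04 at 30 ng/kg and 0.679 to 1.28 at 300 ng/kg.

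The 2 tested lymphoid and mast cell genes of 14, XBP1 and FCER1A, summed to 2.22 to 2.55 in vehicle, 2.22 to 4.10 at 30 ng/kg and 4.99 to 7.50 at 300 ng/kg. Nearly all of this was XBP1, which differed from vehicle by 1.39 ± 0.28 at 300 ng/kg (SE). FCER1A differed by 2.15 ± 0.51 there, and by 0.38 with normexp, which lay 0.61 above the median of all tested probes. FCER1A was well above background on only 1 of 3 vehicle and 1 of 3 arrays of 30 ng/kg, and XBP1 is also active in secretory epithelium. No macrophage marker of 12 could be followed, and IER2, the single immediate early gene of 12, differed by -1.84 ± 0.46 between 300 ng/kg and vehicle. The part of these shifts in the differences of GREM1, BAMBI and the ID genes was not tested.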

How the data were processed

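Per the labels, total RNA of 9 prostates was labelled with Cy3 from 0.5 ug per animal and hybridised to 1 array each. The authors extracted the images with Agilent Feature Extraction (9.5 per the submitters' processing notes, 9.5.1.1 per the file headers). The deposited processed signal is an intensity, corrected for background within each array. The authors' deposited table gives each fold as a ratio with its direction, and group means on the log2 scale. How the table was normalized: not given in the sources used here. Not used were its group means after normalization and 9 columns of flags for single samples. The deposited log2 raw means were within 0.01 of means computed from the array files for 1479 of 1502 probes, the 5 members included.

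The 2 spots of a probe were averaged, outlier flags left out, then divided by the 75th percentile of the array, with a floor of 5 units on the dimmest array's scale (-6.10 after log2). The 15160 probes that were well above background throughout 1 or more groups were fitted in limma 3.58.1 (R 4.3.3, statmod 1.5.0), with group as the only term and all 9 arrays, and 5057 were not. Adjusted p-values are Benjamini-Hochberg over all tested probes, 2-sided, with a threshold of 0.05. The fit had 6 residual and 2.987 prior degrees of freedom. Precision is limited by the number of arrays. Summaries and figures used Python 3.11.15, pandas 2.3.3, numpy 2.4.6, scipy 1.17.1 and matplotlib 3.10.9.

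The members and lists were chosen with earlier results of these data known. Named genes were the members, the 3 named probes with the highest r to each, and up to 6 genes per list that the authors' table names. A gene that this rule names is not reported here. Gene names were taken from the authors' table alone. Of the 1319 symbols in the table, 857 were found in the macaque RefSeq table, the 5 members among them. The normexp alternative had been planned on the mean spot signal and used the median spot signal instead (offset 50). Other alternatives were quantile and median scaling, filters on dim probes, the compared groups alone, slide as a block, replicate number as a block, array weights and each array left out. A brightness covariate, counts without replicate 2 of 300 ng/kg, the settings behind the GREM1 ratios and correlations in vehicle and 30 ng/kg alone were chosen after seeing the data. The 3 offspring of a group are separate animals.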

Additional observations from a re-analysis of the deposited data

How the results depend on the processing

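Over 21 alternative settings, 103 of 105 values of the members for 300 ng/kg minus vehicle stayed within 1 residual SD of those reported and 0 changed sign. The exceptions were ID2 (0.54) and ID3 (0.64) with slide as a fixed block. Some settings could not change a member's difference in any comparison: the filters on dim probes, a lower floor, the compared groups alone and the replicate block. Leaving out an array of the group not compared could not change it either. The counts of unchanged values here include these settings, and so overstate how far the differences were tried. Of 105 values for 300 minus 30 ng/kg, the exception was BAMBI with normexp (0.49). Of those for 30 ng/kg minus vehicle, which ran from -0.60 (ID2) to 0.82 (GREM1 with array weights), 12 changed sign and 2 moved by over 1 residual SD, ID2 (-0.60) and ID3 (-0.52) within slide 2. With normexp the median of all tested probes was -0.22 for 300 ng/kg minus vehicle, 0.29 for 30 ng/kg minus vehicle and -0.52 for 300 minus 30 ng/kg. In the reported setting these medians were -0.01, 0.02 and -0.03. With median scaling the last was 0.15. For the pairwise r of the members, the median was 0.662 over deviations from group means, 0.426 without the 2 farthest arrays and 0.046 in vehicle and 30 ng/kg alone. Its range was 0.863 to 0.935 with each array left out.

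Called probes for 300 ng/kg minus vehicle numbered 198 with array weights, and 0 to 364 with each array left out, the highest without 300 ng/kg replicate 2. For 30 ng/kg minus vehicle there were 6 with slide as a fixed block, and 0 to 1 with each array left out, the 1 without 30 ng/kg replicate 2. For 300 minus 30 ng/kg there were 1 with quantile normalization, 3 with median scaling, 2 with slide as a fixed block, 1 with the replicate block and 2951 with array weights. With each array left out there were 0 to 777, the highest without 30 ng/kg replicate 2, with 247 without 300 ng/kg replicate 2. At an unadjusted p under 0.05, array weights gave 4634, 3149 and 5950 probes in these comparisons in that order. Normexp gave 1246 for 300 ng/kg minus vehicle and 397 for 30 ng/kg minus vehicle, and the brightness covariate 1116 for 300 ng/kg minus vehicle and 528 for 300 minus 30 ng/kg. Slide as a fixed block gave 1552 for 30 ng/kg minus vehicle. With each array left out these counts ran from 1001 (without 300 ng/kg replicate 3) to 2978 for 300 ng/kg minus vehicle, from 413 to 1940 for 30 ng/kg minus vehicle and from 1590 to 4632 for 300 minus 30 ng/kg. The causes were not tested. Same-numbered arrays had deviations correlated at -0.256 to 0.543, so the numbers were not taken as pairs. With the replicate block the members' differences could not change, since every group holds each replicate number. With it, 0 probes were called for 300 ng/kg minus vehicle and 0 for 30 ng/kg minus vehicle. Leaving out an array leaves a group of 2, whose spread is borrowed from the others.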
